A study of Mus musculus with 8 samples.

Results

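Proteases that act outside the cell or in lysosomes, together with their inhibitors, form the group of genes described here. Members were the rows of the raw count table whose gene symbol belonged to the families ADAM, ADAMTS, ADAMTSL, MMP, TIMP, serpin, PRSS, TMPRSS, cathepsin, kininogen, cystatin or SPINT, with Plau, Plaur, Plat and St14. The rule found 106 of 15288 genes, and it used no measured value. Bulk RNA was sequenced from IMCD, a cell line of the mouse kidney that stems from the collecting duct of the inner medulla, the last tubule segment. Cells grown in DMEM with fetal bovine serum were moved for 12 h to medium without serum, either as such (control, replicates 1 to 4) or with 100 mmol added NaCl (replicates 5 to 8). Both groups were therefore without serum for that time, and no other agent or allele is named in the labels. No volume is given with the NaCl amount. They do not say whether the 4 libraries of a group came from separate cultures, so p-values measure the spread between these libraries, which may be technical.

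Extracellular proteases are made as inactive precursors and are held in check by secreted inhibitors, so that matrix turnover, shedding of membrane proteins and plasmin formation depend on the balance of enzyme and inhibitor. ADAM proteins cleave other proteins from the cell surface, ADAMTS and MMP enzymes cut matrix proteins, and TIMP proteins inhibit these metalloproteases. Serine proteases of the tubule surface cut the epithelial sodium channel and growth factor precursors, and cathepsins degrade proteins in the lysosome.

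Library totals ran from 35.3 to 47.6 M counts. A gene with adequate counts was tested with edgeR's quasi-likelihood test, and it was called at a Benjamini-Hochberg adjusted p-value under 0.05. Levels are counts relative to TMM-scaled library size (CPM), given as mean ± SD with n = 4 libraries in each group, and fold changes are NaCl over control. The labelled cell type was checked against marker genes. Of 19 collecting duct and distal nephron markers, 17 had a row, among them Cdh16 and Pax8 at over 100 CPM. The water channel gene Aqp2 had at most 15 counts in any library, and Aqp3, Aqp4, Avpr2 and Cdh1 had at most 48. The summed level of the list was 1432 to 1819 CPM in control and 2398 to 2677 CPM in NaCl libraries. This rise was mostly that of Cdh16 (639 to 1380 CPM). Of 15 tested 6 rose and 3 fell, namely Gata3, Hoxb7 and Tfcp2l1. Fibroblast markers summed to 3165 to 3678 CPM in control and 2858 to 3286 CPM in NaCl libraries, mostly Col1a1, which fell from 2492 to 2148 CPM. Pdgfra also fell (2.38 to 1.50 CPM), Pdgfrb rose (37.5 to 61.1 CPM) and the other 5 tested were not called. Of 10 leukocyte markers, 5 had a row and summed to 68.3 to 84.7 CPM and 82.0 to 94.4 CPM, mostly Cd14. Ptprc rose from 4.05 to 13.5 CPM and Fcer1g from 0.227 to 0.547 CPM, and the other 3 were not called. Proximal tubule markers, 4 of 7 with a row, summed to 274 to 327 CPM and 1012 to 1039 CPM, a difference carried by Aqp1 alone (118 to 858 CPM), while Lrp2 (185 and 162 CPM) and Cubn were not called. Endothelial markers, 4 of 7 with a row, summed to 5.89 to 7.06 CPM in control and 3.15 to 4.16 CPM in NaCl libraries. They were mostly Plvap, which fell from 5.52 to 3.07 CPM. The part of these markers in the results was not tested, and in bulk RNA fewer cells of a type and less RNA per cell cannot be told apart.

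Of the 106 members, 89 passed the expression filter, and the other 17 had at most 20 counts in any library. With NaCl 18 members rose and 33 fell. These 51 called members are 57.3% of the 89 tested, where 34.1% of all 14024 genes tested were called. The share that rose was 20.2%, against 16.9% of all genes, and the share that fell was 37.1%, against 17.2%. The median log2 fold change was -0.14 over the members and 0.00 over all genes, and the median absolute value was 0.36 against 0.14. Among genes with a mean level of at least 10 CPM, 29 of 46 members were called (63.0%, against 38.9% of all such genes). Of those 46, 8 rose (17.4%, against 18.6%) and 21 fell (45.7%, against 20.3%). In 46 of the 89 members the libraries of the groups did not overlap (51.7%, against 33.4% of all genes). Together the members took 0.984 to 1.01% of counts in control and 0.906 to 0.946% in NaCl libraries. With the library number from 1 to 8 fitted as a linear drift, 34 of the 89 members were called (38.2%, against 24.1% of all genes in that fit). Of these 8 were higher, where 11.5% of all genes were, and 26 lower, where 12.6% were.

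**Figure D1:**
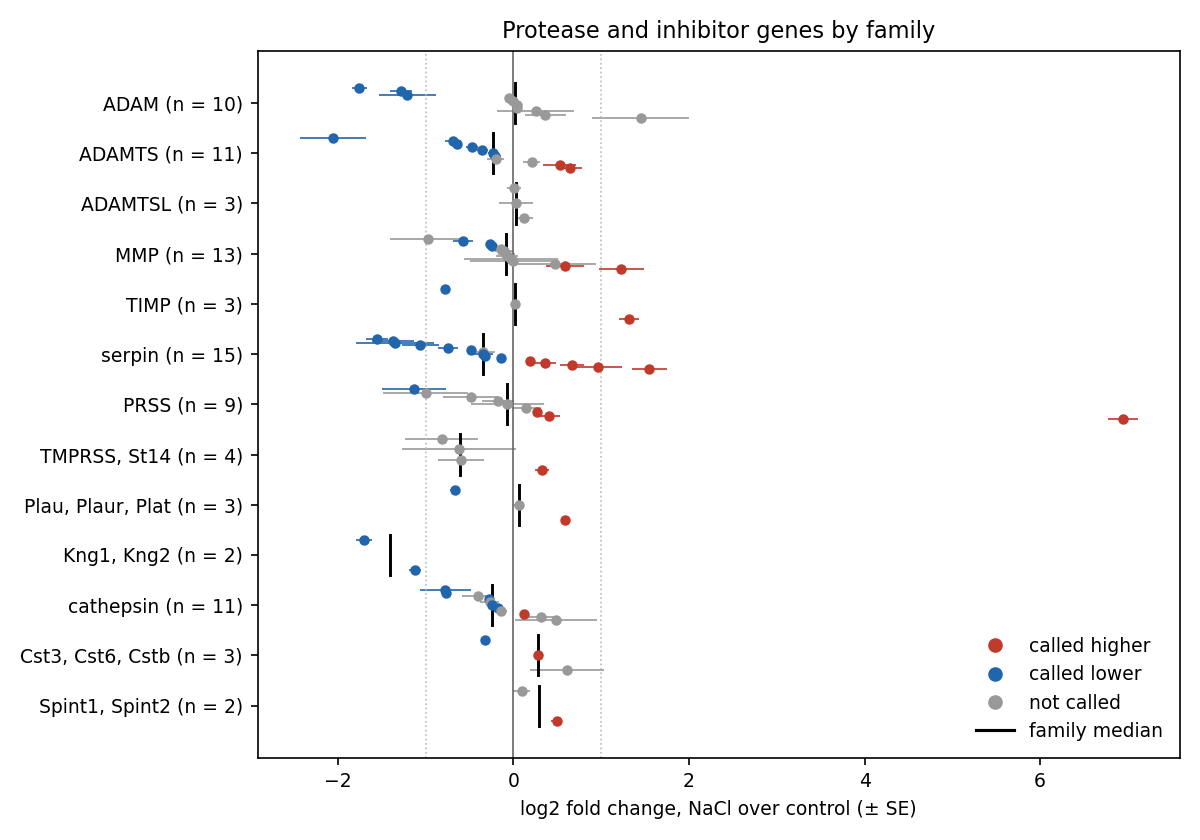
Log2 fold change (NaCl over control, horizontal axis) with its standard error for the 89 tested members, by family. Red points were called higher, blue points lower and grey points were not called, black bars mark family medians, and dotted lines mark a 2-fold change. Prss35 stands alone at 6.94, and both kininogens lie beyond a 2-fold decrease.

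At least 2-fold apart were 15 called members (16.9%, against 3.2% of all genes). The 4 that rose were Prss35, Serping1, Timp3 and Mmp16 (4.49%, against 2.04%). The 11 that fell included Adamts16, Adam12, Kng1, Serpinb9b, Serpina3g, Adam8, Adam19, Prss12, Kng2 and Serpinb1a (12.4%, against 1.16%). Compared per kilobase of annotated exon, the most abundant members in control were Serpinh1 (532 CPM per kb), Ctsd (412), Cst3 (198), Adamts1 (176), Cstb (157), Ctsb (149), Timp2 (135), Plau (128) and Kng1 (113). In NaCl libraries the order began with Serpinh1 (425), Ctsd (347) and Cst3 (241). Spint2, Adamts1 and Timp2 followed at 138, 138 and 137 CPM per kb, a difference smaller than their spread between libraries, while Kng1 had dropped to 34.7 CPM per kb.

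Start regions were matched for 66 of the 106 members (78 RefSeq start sites, GRCm38.p6). The 250 bases before the start are shown for Prss35 and Timp3, which rose by at least 2-fold, for Kng2, which fell, and for Ctsd, the most abundant cathepsin. Capitals mark matches on either strand to the motif named with each region (Prss35 and Timp3 held none), and each sequence runs 5′ to 3′ on the strand of its gene.
Prss35, chr9:86743383-86743632, plus strand, TonE consensus: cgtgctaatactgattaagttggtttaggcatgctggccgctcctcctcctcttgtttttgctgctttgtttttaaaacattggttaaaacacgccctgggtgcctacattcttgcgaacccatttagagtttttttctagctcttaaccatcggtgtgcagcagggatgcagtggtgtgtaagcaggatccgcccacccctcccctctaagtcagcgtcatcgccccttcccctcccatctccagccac
Timp3, chr10:86300162-86300411, plus strand, TonE consensus: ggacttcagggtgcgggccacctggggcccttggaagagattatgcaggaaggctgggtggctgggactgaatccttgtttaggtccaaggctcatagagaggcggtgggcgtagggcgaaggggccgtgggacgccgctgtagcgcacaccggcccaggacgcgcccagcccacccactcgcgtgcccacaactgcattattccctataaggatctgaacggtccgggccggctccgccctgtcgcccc
Kng2, chr16:23029102-23029351, minus strand, NFAT5 core: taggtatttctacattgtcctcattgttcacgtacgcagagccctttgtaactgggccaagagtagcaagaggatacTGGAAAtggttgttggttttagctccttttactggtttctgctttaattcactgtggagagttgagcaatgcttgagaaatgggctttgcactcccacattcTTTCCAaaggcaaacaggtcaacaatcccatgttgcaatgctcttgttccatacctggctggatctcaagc
Ctsd, chr7:142387828-142388077, minus strand, E-box: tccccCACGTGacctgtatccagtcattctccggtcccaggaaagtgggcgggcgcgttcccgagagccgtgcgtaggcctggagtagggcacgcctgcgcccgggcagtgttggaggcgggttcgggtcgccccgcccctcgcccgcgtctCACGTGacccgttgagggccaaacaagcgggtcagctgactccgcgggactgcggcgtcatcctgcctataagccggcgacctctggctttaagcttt
The tonicity-responsive enhancer (TonE) is the site bound by NFAT5, the transcription factor of the hypertonic response, and its consensus begins with the core TGGAAA. The full consensus was found in 4.96% of all 32851 start regions (250 bases before to 50 after the start) and in 3 of the 78 of members, those of Serpinh1, Ctss and Adam21. It was in none of the 17 regions of the 10 members called higher for which a region was available, Prss35 and Timp3 included. The core alone was in 21.4% of all start regions and in 14 of the 78 (17.95%), and Kng2 held it at 173 and 71 bases before its start. The E-box CACGTG, part of the site bound by TFEB, a regulator of lysosomal genes, was in 7.15% of all start regions and in 6 of the 78 (7.69%). Counted per gene, it was in 4 of 9 cathepsin and 2 of 6 ADAM genes, whereas the 7.15% is counted per start region. The region of Ctsd held it at 245 and 98 bases before the start. The AP-1 site TGANTCA was in 7.81% of all start regions and in 10 of the 78 (12.82%). A match of letters describes the window only, and sites farther away were not searched.

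Prss35 (chr9:86743649-86758443) encodes a secreted protein of the trypsin-like fold that is annotated as an inactive protease. It was at 0.943, 0.569, 0.942 and 0.568 CPM in control replicates 1 to 4, and at 105, 99.0, 96.2 and 75.2 CPM in NaCl replicates 5 to 8. Every NaCl library was far above every control library, and the fold change was 123 (log2 fold change 6.94, SE 0.17, adjusted p = 1.11e-09). The log2 fold change of Prss35 was 7.54 with a linear drift. Per kilobase it moved from 0.219 to 27.3 CPM, close to its relative Prss23 at 28.0 CPM per kb with NaCl. Prss23 itself rose from 87.4 ± 2.06 to 106 ± 5.36 CPM (log2 fold change 0.27, adjusted p = 6.74e-05), although 22.9% of its exons overlap the antisense gene Prss23os, which had at most 20 counts. Of the 12 PRSS genes 9 were tested, 3 rose and 1 fell (34.1% of all genes were called). The third gene that rose was Prss36, from 3.62 to 4.78 CPM, and Prss12, which encodes the agrin-cleaving neurotrypsin, fell from 0.902 ± 0.439 to 0.409 ± 0.0493 CPM (adjusted p = 0.0245). Leaving out 1 library removed the Prss12 call in 4 cases, namely control replicates 2 (0.0501) and 4 (0.126) and NaCl replicates 7 (0.0607) and 8 (0.0588). With a linear drift neither gene was called: the log2 fold change of Prss12 was then -1.66, against -1.13 (adjusted p = 0.0885), and that of Prss23 0.16 (adjusted p = 0.11).

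Membrane-anchored serine proteases and their Kunitz-type inhibitors were examined next. Prss8 encodes prostasin and St14 encodes matriptase, which process the sodium channel and each other at the epithelial surface, and the products of Spint1 and Spint2 inhibit both. Spint2 was at 399, 420, 480 and 486 CPM in control and at 607, 600, 629 and 674 CPM in NaCl libraries, a rise in each NaCl library above all controls (log2 fold change 0.49, SE 0.065, adjusted p = 1.41e-04). With a linear drift the Spint2 value was 0.18 (adjusted p = 0.0216). St14 rose from 30.6 ± 3.60 to 38.3 ± 2.42 CPM (log2 fold change 0.32, adjusted p = 0.00327), a call that was lost with a linear drift (0.02, adjusted p = 0.942). Spint1, at 21.5 ± 1.84 and 22.9 ± 3.31 CPM, was not called (adjusted p = 0.493), and with the drift its log2 fold change was -0.36 (adjusted p = 0.0472). Prss8 was low and was not called, with 2.59 ± 0.294 and 2.30 ± 0.448 CPM (adjusted p = 0.485). Tmprss2 had at most 20 counts in a library and Tmprss4 at most 16, too few for Tmprss4 to be tested. Per kilobase, Spint2 exceeded St14 by 23.1 to 25.8 times in control and by 26.5 to 28.4 times in NaCl libraries. Of the channel and receptor genes cut by such proteases, Scnn1g fell from 3.77 to 2.10 CPM (adjusted p = 3.74e-04), F2rl1 rose from 97.3 to 121 CPM (adjusted p = 0.0175), and Scnn1a and F2r were not called.

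The plasminogen activators moved in opposite directions. Plau (chr14:20836660-20843385), which encodes urokinase, the activator bound at the cell surface, was at 287, 302, 305 and 316 CPM in control and at 207, 174, 182 and 198 CPM in NaCl libraries. Plat (chr8:22757727-22782844), which encodes the tissue-type activator, was at 200, 186, 172 and 166 CPM in control and at 288, 275, 265 and 263 CPM with NaCl. For neither gene did the groups overlap. The log2 fold change was -0.67 for Plau (SE 0.049, adjusted p = 8.15e-08) and 0.59 for Plat (SE 0.052, adjusted p = 9.49e-07). Per kilobase, the ratio of Plat to Plau was 0.200 to 0.264 in control and 0.503 to 0.599 in NaCl libraries, so Plau stayed the more abundant of the pair in each library. Plaur, the urokinase receptor gene, was at 26.0 ± 1.64 and 27.1 ± 1.63 CPM and was not called (adjusted p = 0.495).

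Serpine2, which encodes protease nexin, an inhibitor of urokinase and thrombin, was at 9.73 ± 1.21 and 7.68 ± 0.491 CPM (adjusted p = 0.0172). Without control replicate 1 (0.0504), without control replicate 2 (0.0576) and with a linear drift (0.623, log2 fold change -0.17 against -0.34) Serpine2 was no longer called. Of 13 further genes for plasminogen binding, clearance and related receptors, 8 were tested, 2 rose, 1 fell and 5 were not called. The share called was near the 34.1% of all genes. Met, the hepatocyte growth factor receptor gene, rose from 202 to 323 CPM.

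**Figure D2:**
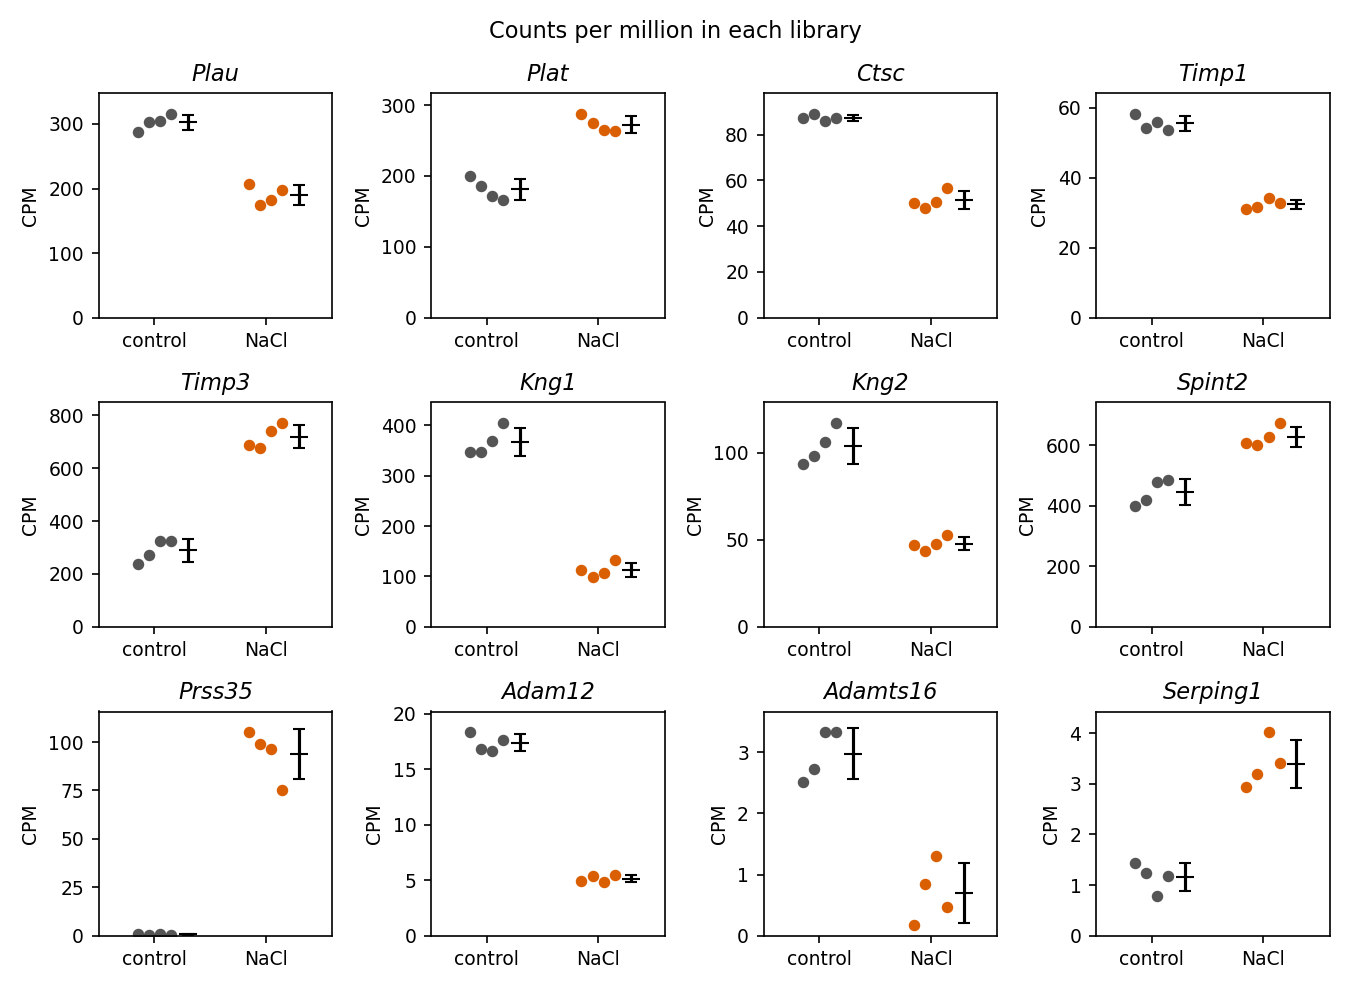
Level in CPM (vertical axis, from 0) in each of the 4 control (grey) and 4 NaCl (orange) libraries for 12 members, with mean ± SD beside the points. The 12 shown are all called members whose groups do not overlap, which held for 51.7% of the tested members and 33.4% of all genes. Plau and Plat move in opposite directions, as do Timp1 and Timp3.

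Kininogens are precursors of bradykinin and also inhibit cysteine proteases. Kng1 (chr16:23057865-23082078) was at 347, 348, 368 and 405 CPM in control and at 113, 99.7, 107 and 132 CPM in NaCl libraries. Kng2 (chr16:22985854-23029482), 28.4 kb away, was at 93.3, 97.8, 106 and 117 CPM and at 46.9, 43.5, 47.4 and 52.6 CPM. Both fell in all NaCl libraries below all controls, by 1.70 (SE 0.089, adjusted p = 1.02e-06) and 1.12 (SE 0.073, adjusted p = 2.24e-07) on the log2 scale. They share 6.47% of the Kng1 transcript at 98% identity, so a small part of their counts could be exchanged. Of 14 other genes of the kinin system, 9 were tested, none rose and 3 fell, a share near the 34.1% of all genes that were called. Those that fell, Mme (242 to 201 CPM), Prcp (29.8 to 24.3 CPM) and Cpm (4.80 to 2.83 CPM, adjusted p = 0.0025), encode peptidases that cut kinins. Other peptidase genes of the list were not called, among them Cpd (232 and 238 CPM), Dpp4, Ace and Cpn1. The bradykinin receptor gene Bdkrb2 was at 2.48 and 2.19 CPM and was not called (adjusted p = 0.522). The summed level of the kininogens was 471 ± 37.3 CPM in control and 160 ± 17.4 CPM in NaCl libraries.

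Each of the 3 TIMP genes behaved differently. Timp3 (chr10:86300372-86349506), whose product stays bound to the matrix and inhibits ADAM and ADAMTS enzymes besides MMPs, was at 236, 272, 325 and 323 CPM in control and at 688, 678, 739 and 772 CPM in NaCl libraries. Timp1 (chrX:20870166-20874735), which encodes a soluble inhibitor, was at 58.2, 54.2, 56.0 and 53.7 CPM and at 31.2, 31.6, 34.1 and 32.8 CPM. Timp3 thus rose 2.49-fold (log2 fold change 1.32, SE 0.11, adjusted p = 8.12e-05) and Timp1 fell by 0.78 on the log2 scale (SE 0.048, adjusted p = 3.09e-09), with no overlap for either. A linear drift gave Timp3 a log2 fold change of 0.89 (adjusted p = 9.87e-04), under 2-fold. Timp2, which also takes part in the activation of pro-MMP2 by Mmp14, was at 528 ± 14.7 and 536 ± 14.0 CPM and was not called (adjusted p = 0.659). Per kilobase of annotated exon, the ratio of Timp3 to Timp1 was 0.443 to 0.656 in control and 2.34 to 2.57 in NaCl libraries. By this measure the order of the pair turned over. The longest Timp3 transcript has 4722 bases, against 8144 bases of annotated exon. Which gene was ahead in control therefore depends on the length used. Exons of Timp3 overlap the opposite-strand gene Syn3 over 21.3% of their length, and Syn3 had at most 119 counts.

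ADAM genes that fell were of low abundance, and the abundant ones did not pass the test. The sheddase genes Adam10 (180 ± 1.50 and 174 ± 7.63 CPM) and Adam17 (102 ± 2.96 and 105 ± 3.82 CPM) were not called (adjusted p = 0.327 and 0.404), nor were Adam9 (222 and 228 CPM) and Adam15 (81.4 and 81.0 CPM). Of the 10 ADAM genes tested, 3 fell, none rose and 7 were not called, a share called near the 34.1% of all genes. Adam12 was at 18.4, 16.9, 16.7 and 17.6 CPM in control and at 4.88, 5.39, 4.82 and 5.45 CPM in NaCl libraries (log2 fold change -1.76, adjusted p = 1.46e-10). Adam8 fell from 8.41 ± 1.13 to 3.46 ± 0.304 CPM (log2 fold change -1.28, adjusted p = 6.08e-07). Adam19, a close relative of Adam12, fell from 1.93 ± 0.254 to 0.826 ± 0.483 CPM (adjusted p = 0.00865), with NaCl values of 0.363, 0.520, 0.994 and 1.43 CPM that reached near the lowest control at 1.59 CPM. With a linear drift its log2 fold change was -2.12 in place of -1.21. Exons of Adam19 overlap 2 other genes over 15% of their length in sum, the most with the opposite-strand gene Gm16033. Adam5 had a log2 fold change of 1.45 on at most 41 counts in a library and was not called (adjusted p = 0.0527). Of 19 partner and other sheddase genes, 14 were tested, 2 rose and 5 fell (34.1% of all genes were called). Rhbdf2, which encodes a carrier of ADAM17, rose from 24.8 to 30.3 CPM, and of the tetraspanin partners of ADAM10, Tspan14 rose from 98.6 to 113 CPM (adjusted p = 0.0105), while Tspan15 fell from 42.5 to 31.4 CPM and Tspan5 from 37.9 to 33.6 CPM. Tll1, a tolloid protease gene, fell from 11.3 to 3.38 CPM (log2 fold change -1.73).

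All 11 ADAMTS genes were tested, 7 fell and 2 rose, where 17.2% of all genes fell and 16.9% rose. The ADAMTS median log2 fold change was -0.24. Adamts1, by far the most abundant, encodes a protease of versican and aggrecan. It was at 865, 906, 948 and 1008 CPM in control and at 654, 713, 746 and 803 CPM in NaCl libraries (log2 fold change -0.35, SE 0.062, adjusted p = 9.65e-04). With a linear drift the Adamts1 value was -0.69. Other members that cut these proteoglycans fell as well, namely Adamts4 (35.2 to 22.5 CPM, log2 fold change -0.64), Adamts9 (54.7 to 33.9 CPM, -0.69) and Adamts5 (147 to 124 CPM, -0.24), which lies 53.1 kb from Adamts1. The procollagen N-proteinase genes Adamts14 (31.6 to 22.9 CPM) and Adamts2 (23.3 to 20.2 CPM, with overlapping groups) were also lower. Adamts16 had the lowest fold change of all members. It was at 2.52, 2.73, 3.33 and 3.33 CPM in control and at 0.167, 0.851, 1.31 and 0.476 CPM in NaCl libraries, a wide spread below all controls (log2 fold change -2.06, SE 0.38, adjusted p = 0.00107), which a linear drift moved to -2.89. Adamts7 rose from 2.76 ± 0.117 to 4.33 ± 0.385 CPM (log2 fold change 0.65, adjusted p = 0.00122, and 0.76 with adjusted p = 0.0554 with a linear drift), and Adamts12, another protease of cartilage oligomeric matrix protein, rose from 2.21 to 3.18 CPM (adjusted p = 0.04). None of the 3 ADAMTSL genes tested, which encode relatives without a protease domain, was called, and Adamtsl4, the most abundant, was at 27.7 ± 3.62 and 27.9 ± 1.25 CPM.

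**Figure D3:**
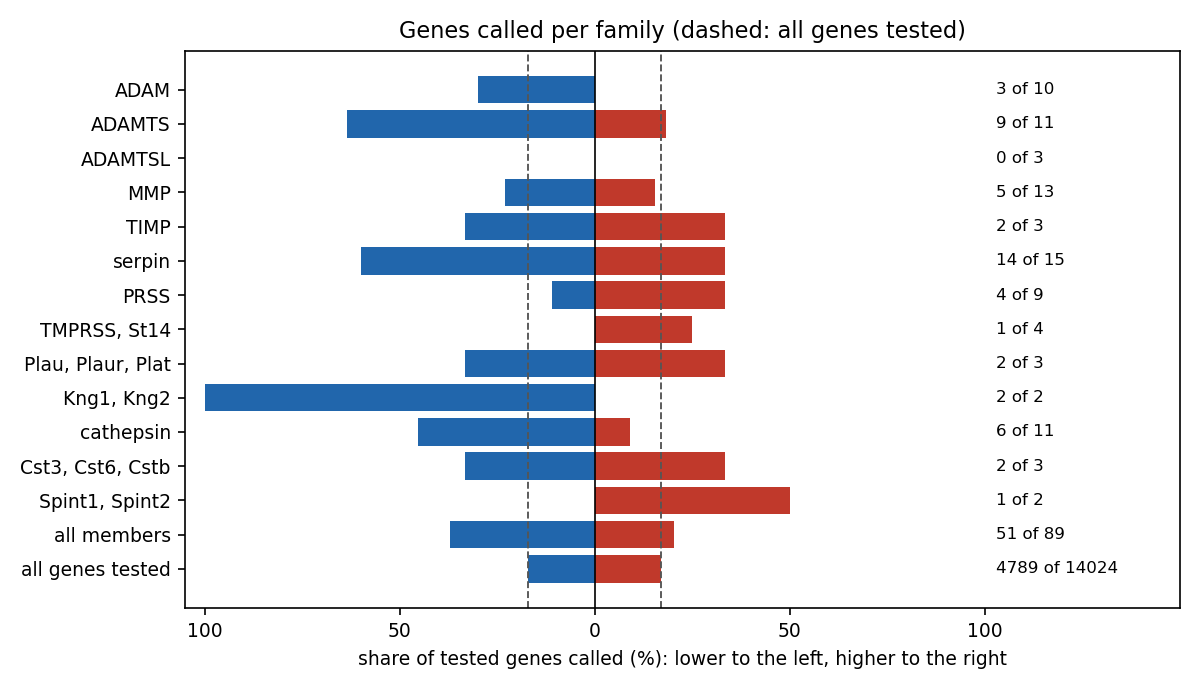
Share of the tested genes of each family that was called lower (blue, to the left) and higher (red, to the right) with NaCl, in percent, with the number called of the number tested at the right. Dashed lines mark the shares over all genes tested, 17.2% lower and 16.9% higher. The ADAM, ADAMTS, serpin, kininogen and cathepsin families reach farther to the left than to the right. The MMP family, with 3 lower and 2 higher of 13, lies near the dashed lines.

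Of 15 matrix metalloprotease genes 13 were tested, 3 fell and 2 rose, a share called near the 34.1% of all genes. The median log2 fold change was -0.08 and the median absolute value 0.25, against 0.14 over all genes, and over 18 alternatives the median ranged from -0.17, without NaCl replicate 5, to 0.06, with a linear drift. The summed level of the MMP genes was 424 ± 17.2 CPM in control and 360 ± 9.76 CPM in NaCl libraries. Mmp14, which encodes the membrane-type protease that activates pro-MMP2, was at 281, 253, 274 and 264 CPM in control and at 211, 225, 225 and 226 CPM in NaCl libraries (log2 fold change -0.27, SE 0.038, adjusted p = 3.71e-05). Mmp2, the gelatinase gene, moved the same way from 68.3 ± 6.48 to 57.6 ± 2.68 CPM (log2 fold change -0.25, adjusted p = 0.00494). Mmp19 fell from 7.09 ± 0.536 to 4.76 ± 0.506 CPM (adjusted p = 8.67e-04). Its exons overlap 2 other genes over 28.3% of their length in sum, the most with the opposite-strand gene Tmem198b. The genes that rose encode membrane-anchored enzymes at low levels. Mmp16 was at 0.650, 0.593, 0.556 and 0.709 CPM in control and at 1.70, 1.30, 1.77 and 1.14 CPM in NaCl libraries (log2 fold change 1.23, adjusted p = 0.00145, and 1.44 with adjusted p = 0.0642 with a linear drift). Mmp17 rose from 1.14 to 1.71 CPM (adjusted p = 0.0426). The gelatinase gene Mmp9, the stromelysin gene Mmp3 and the collagenase gene Mmp13 had at most 43 counts in any library and were not called. Reck, which encodes a membrane-bound MMP inhibitor, fell from 8.94 to 6.81 CPM (adjusted p = 0.0363).

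Serpins were the family with most calls. Of 20 genes 15 were tested, 5 rose, 9 fell and only Serpinf1 was not called (adjusted p = 0.058), where 34.1% of all genes were called. Serpinh1, a collagen chaperone of the endoplasmic reticulum that inhibits no protease, held most of the family's counts and was at 1300 ± 54.4 CPM in control and 1039 ± 26.6 CPM in NaCl libraries (log2 fold change -0.32, adjusted p = 2.77e-06). Clade B encodes intracellular inhibitors, and of its 8 genes 6 were tested, 5 fell and 1 rose. Serpinb9b was at 15.3, 13.4, 12.7 and 11.2 CPM in control and at 3.85, 3.83, 4.82 and 5.36 CPM with NaCl (log2 fold change -1.56, adjusted p = 6.22e-08). Serpinb6a fell from 259 ± 6.57 to 184 ± 6.62 CPM. Its exons overlap 3 other genes over 29.3% of their length in sum, the most with the opposite-strand gene Nqo2. Serpinb8 fell from 8.82 to 5.26 CPM, Serpinb9, an inhibitor of granzyme B, fell from 85.9 to 77.6 CPM, and Serpinb1a, an inhibitor of neutrophil elastase, fell from 2.33 ± 0.253 to 1.12 ± 0.233 CPM. The Serpinb1a call was lost with a linear drift (log2 fold change -0.63 against -1.06, adjusted p = 0.336). Serpinb6b, which lies 24.2 kb from Serpinb9 on chromosome 13, rose from 72.2 to 82.4 CPM, so neighbours in the cluster moved in both directions.

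Secreted serpins that rose were low in abundance. Serping1, which encodes the inhibitor of the complement starter proteases and of plasma kallikrein, was at 1.43, 1.23, 0.773 and 1.18 CPM in control and at 2.93, 3.19, 4.02 and 3.41 CPM with NaCl, a 2.92-fold rise (log2 fold change 1.55, SE 0.20, adjusted p = 1.62e-05). Serpini1, which encodes the tissue-type activator inhibitor neuroserpin, rose from 0.956 to 1.86 CPM (adjusted p = 0.0103). Serpina6, which encodes corticosteroid-binding globulin, rose from 6.25 ± 0.978 to 9.89 ± 1.80 CPM, and Serpina10 rose from 8.51 to 10.9 CPM with overlapping groups. Serpina3g was at 0.463 ± 0.128 and 0.182 ± 0.0760 CPM, at most 26 counts in a library (adjusted p = 0.0254). Serpina3g was no longer called when control replicates 1 (0.0686) or 4 (0.0707) or NaCl replicates 6 (0.0836) or 7 (0.0521) were left out, nor with a linear drift (0.24, log2 fold change -1.58 against -1.35). Of 18 other inhibitor genes 9 were tested, 2 rose and 2 fell (34.1% of all genes were called). Spink2 rose from 0.173 to 0.769 CPM, and Itih2 fell from 5.70 to 2.53 CPM.

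Of 12 lysosomal cathepsin genes 11 were tested, 5 fell, 1 rose and 5 were not called (34.1% of all genes were called). The median log2 fold change was -0.25, and over 18 alternatives it ranged from -0.45, with a linear drift, to -0.20. Ctsd, the aspartic protease gene, was at 919, 948, 993 and 1016 CPM in control and at 793, 777, 813 and 885 CPM in NaCl libraries (log2 fold change -0.25, SE 0.043, adjusted p = 3.02e-04). The Ctsd value was -0.45 with a linear drift. The cysteine protease genes Ctsb (904 to 743 CPM, log2 fold change -0.28) and Ctsl (591 to 525 CPM, -0.17) fell in every NaCl library below all controls. Exons of Ctsd overlap Gm49369 on the same strand over 34.4% of their length. Those of Ctsb overlap Fdft1 on the opposite strand over 12.8%. Those of Ctsl and Ctsa each overlap 2 other genes, over 32.9% and 17.4% in sum, the most with Gm47123 and Pltp on the opposite strand. Counts could be shared, for the opposite strand if strand was ignored in counting. Ctsc, which encodes the dipeptidyl peptidase that activates granule serine proteases, fell most among the abundant cathepsins, from 87.2, 89.1, 86.1 and 87.2 CPM to 50.3, 48.1, 50.7 and 56.9 CPM (log2 fold change -0.76, SE 0.048, adjusted p = 3.39e-09). Ctsw fell from 2.02 ± 0.424 to 1.17 ± 0.554 CPM (adjusted p = 0.0478), but 6 of the 8 fits that left out a library lost this call: without control replicates 1 (0.0544), 3 (0.0889) or 4 (0.125), or without NaCl replicates 5 (0.118), 7 (0.0729) or 8 (0.121). With a linear drift Ctsw was not called either, at a log2 fold change of -1.04, against -0.78 (adjusted p = 0.175). Ctsa, the carboxypeptidase gene, rose from 192 ± 6.26 to 208 ± 6.21 CPM (adjusted p = 0.0151) with overlapping groups. That call was lost without control replicate 2 (0.0575), NaCl replicate 8 (0.0536) or with a linear drift (0.428, log2 fold change 0.07 against 0.12). The summed cathepsin level was 2896 ± 53.9 CPM in control and 2474 ± 102 CPM in NaCl libraries.

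Cathepsin inhibitors and sorting genes completed the comparison. Cst3, the secreted cystatin gene, was at 224, 246, 266 and 266 CPM in control and at 306, 296, 307 and 311 CPM in NaCl libraries (log2 fold change 0.28, adjusted p = 2.21e-04). Cstb, the cytosolic cystatin gene, was at 98.9, 101, 93.4 and 86.0 CPM and at 78.9, 77.5, 75.7 and 72.3 CPM (log2 fold change -0.32, adjusted p = 9.32e-05). Neither pair of groups overlapped, yet with a linear drift both calls were lost (log2 fold change 0.09 with adjusted p = 0.312 for Cst3, and -0.09 with adjusted p = 0.431 for Cstb). Cst6 had at most 40 counts in a library and was not called (adjusted p = 0.294). Of 12 genes for lysosomal protease sorting and further lysosomal proteases, all were tested, 4 rose and 4 fell (34.1% of all genes were called). Lgmn, which encodes legumain, a processing protease of the cathepsins, fell from 207 to 173 CPM, and Sort1, a sorting receptor gene, rose from 109 to 126 CPM. Among 9 proprotein convertase genes 6 were tested, Furin, whose product activates many of the metalloproteases above, rose from 141 to 176 CPM, and Pcsk6 fell from 4.42 to 2.89 CPM.

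**Figure D4:**
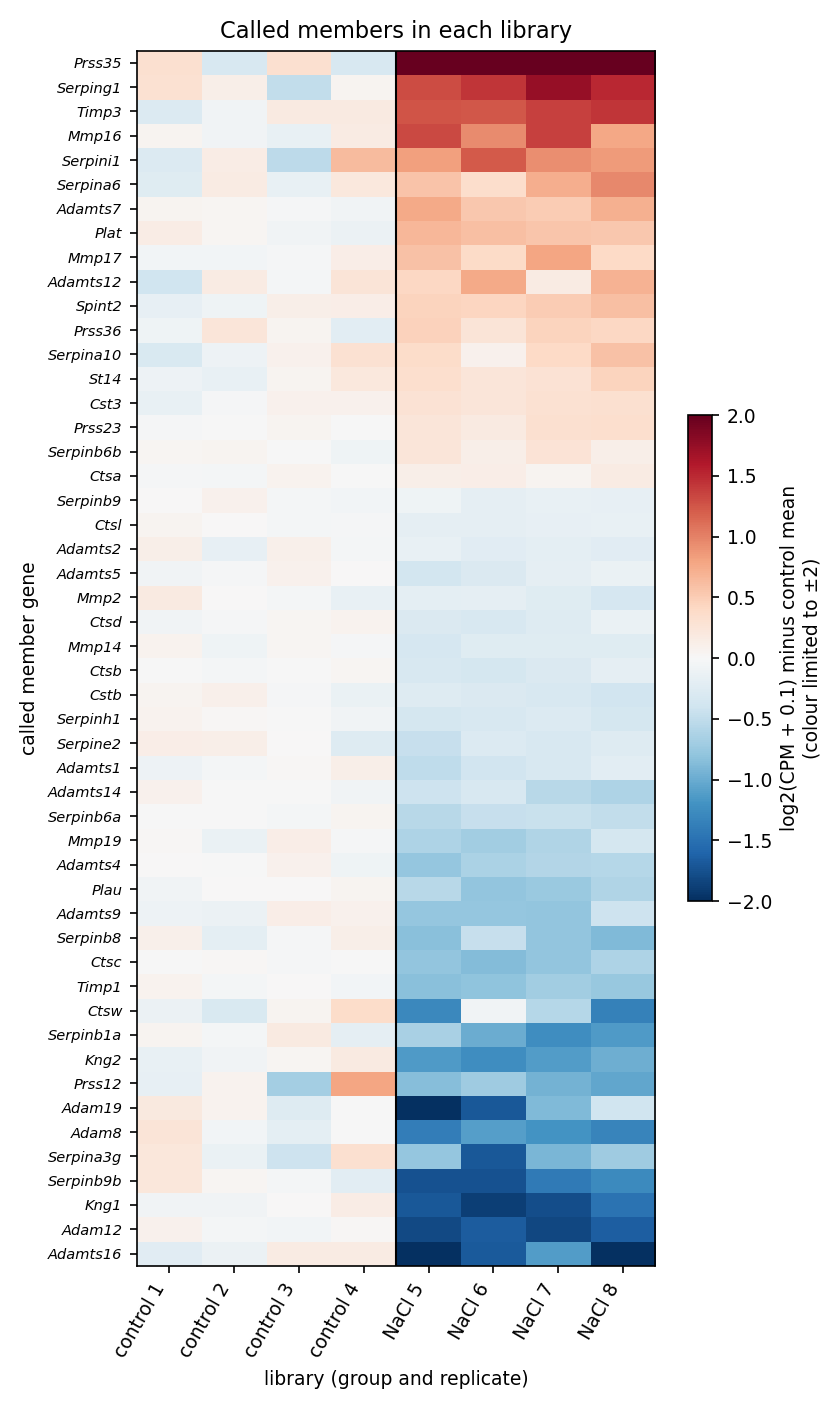
Called members (50 rows, ordered by fold change) in each library (columns), as log2(CPM + 0.1) minus the mean of the 4 controls, with colours limited to ±2. Rows from Prss35 to Ctsa were higher and rows from Serpinb9 to Adamts16 lower with NaCl, and pale cells in Ctsw and Adam19 mark NaCl libraries near the controls.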

How the data were processed

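RNA-seq libraries of 4 control and 4 NaCl samples were compared. Per the submitters' processing notes, Trim Galore 0.6.7, STAR, DESeq2 1.34.0 and the mm10 build were used, and the counting program and its strand setting are not given in the sources used here. The authors deposited raw counts per gene and a normalized signal, which equals the raw count divided by 1 factor per library (0.864 to 1.15). Totals were 35.3 to 47.6 M counts, and intervals or floors would cover counting error only, since PCR copies are not independent molecules.

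The counts entered edgeR 4.0.16 (R 4.3.3). Genes were kept by filterByExpr (minimum count 10, grouped), scaled by TMM and fitted by robust quasi-likelihood on group alone, with Benjamini-Hochberg adjustment over 14024 genes. The test was checked on simulated data: of genes changed 1.5-fold in NaCl over control, 86.4% were recovered among 13863 genes, and over all simulated fold sizes 16 of 203 calls were false. Alternatives used DESeq2 1.42.0, limma 3.58.1, other scalings, filters and thresholds, the library number as covariate, and leaving out each library.

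Positions, exon lengths and overlaps came from GENCODE M21 (GRCm38, the mm10 assembly), shared sequence from blastn 2.17.0 (at least 75 bases at 98% identity), and start regions from RefSeq (GRCm38.p6). Members, lists and tests were chosen with earlier results of these data known, and no list was tested as a set. Genes were named by rule: called members changed at least 2-fold, the called extremes and the most abundant member per kilobase of each family, and the plasminogen, kinin, TIMP, cystatin, Kunitz, channel-activating and ADAM sheddase genes. Other members were named after their values were seen. Results for some genes are not reported here.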

Additional observations from a re-analysis of the deposited data

Results flagged for a closer look

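In 88 groups of 4 values, covering the named members and the library totals, 4 held a library far from the other 3, where chance gives about 4.4. Mmp14 was at 211 CPM in NaCl replicate 5 and at 225 to 226 CPM in the other NaCl libraries, which lay unusually close together. Leaving that library out gave a Mmp14 log2 fold change of -0.25, against -0.27. Cst6 was at 0.569 CPM in control replicate 2, from 24 counts, and at 0.284 to 0.314 CPM in the other controls, and it was not called with or without that library. Control replicate 1 had a total of 47.6 M counts and the other controls 41.8 to 42.7 M. NaCl replicate 5 had 35.3 M counts and its group otherwise 41.4 to 42.4 M. The part of depth in the results was not tested, and leaving out either library left 47 members called. These were 52.2% without control replicate 1, against 31.4% of all genes, and 51.6% without NaCl replicate 5, against 30.6%.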

How the results depend on the processing

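The number of called members was 44 to 48 when a library was left out, against 51, with 13 to 17 higher, 31 to 33 lower and 13 to 16 changed at least 2-fold. In these fits 48.4 to 53.9% of the tested members were called, against 28.7 to 32.6% of all genes. Of all genes 13.9 to 15.9% were higher and 14.4 to 16.7% lower. Over the other alternatives the number of called members was 34 to 58, lowest with a linear drift over library numbers. It was highest with the library number centred by group as a covariate (58, of which 19 higher and 39 lower, or 65.2% against 43% of all genes). That drift in part cannot be told apart from the groups, which hold numbers 1 to 4 and 5 to 8. It moved the number of higher members from 18 to 8, and 28 of its 34 called members were also called without it. Calls were also lost with the drift in members outside the 42 named by rule, whose drift values are not given. Of 794 refits of 42 named members, 751 kept direction and side of the threshold, 36 lost the call and 7 changed direction. The changes of direction were all in members not called with all libraries: Adam9 (-0.013), Tmprss2 (1.12) and Spint1 (-0.36) with the drift, and Adamtsl4 without control replicate 2 or 3 or NaCl replicate 5 or 8. Over all fits without 1 library Adamtsl4 ranged from -0.055 to 0.098. The cause was not tested. No paired analysis was possible because the groups share no replicate number. The 17 members not tested had at most 20 counts in any library, too few for a comparison at this depth.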
